A study of Mus musculus with 3 samples.

Results

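The proliferin genes Prl2c1, Prl2c3 and Prl2c5 and the prolactin receptor gene Prlr were read in 3 cell fractions of mouse epididymal fat. They were taken as the non-control array probes that carry 1 of these 4 gene names, which gave 6 probes (1 for each proliferin gene and 3 for Prlr) of the 56602 probes, for 37324 gene names, that could be read on all arrays. The fractions were stromal vascular cells (SVC), small proliferative adipocytes (SPA, small cells sedimented out of the floating fraction) and mature adipocytes (MA, the cells that stayed afloat). All came from C57/BL males aged 20 weeks after collagenase digestion and were hybridised to 1 single-colour Agilent array each. SVC and SPA were grown in DMEM almost to confluence before RNA was taken, and the labels describe no culture for MA, so that in a comparison with MA the cell type cannot be told apart from culture. The sample titles date SVC and SPA alike and MA differently, and this too cannot be told apart from cell type. The labels do not give how many mice stand behind an array. There were no replicates, hence no test and no p-value, and no difference below has a replicate check.

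Proliferins are secreted relatives of prolactin that placental trophoblast cells make in large amounts, and they are known for effects on vessel growth and for their induction in dividing fibroblasts. They belong to a family that rodents expanded on chromosome 13, whose other placental members include the placental lactogens. The prolactin receptor is a class I cytokine receptor which, once prolactin or a placental lactogen binds, acts through the kinase Jak2 and Stat5, and it is known to be present on white adipocytes. Whether proliferins act through this receptor is not something that an RNA measurement addresses.

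The sequences of 4 probes are given first, because what each probe can bind decides which gene its signal belongs to. They are the 60-base array probes, 5′ to 3′, without capitals since no part of a probe was singled out.
Prl2c1: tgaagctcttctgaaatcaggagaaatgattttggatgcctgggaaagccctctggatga
Prl2c3: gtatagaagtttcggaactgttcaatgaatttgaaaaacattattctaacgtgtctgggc
Prl2c5: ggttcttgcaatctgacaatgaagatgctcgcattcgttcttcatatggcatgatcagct
Prlr: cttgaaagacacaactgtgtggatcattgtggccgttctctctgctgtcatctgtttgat

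In the mm9 coordinates of the array annotation, the Prl2c1 probe lies on the plus strand at chr13:27948312-27948371, inside the large prolactin cluster, and is annotated to Prl2c1 alone. The Prl2c3 probe lies on the minus strand at chr13:12885635-12889129. Its 60 bases extend over 3495 bases of the genome, so that the probe crosses at least one intron. The Prl2c5 probe lies on the plus strand at chr13:13283943-13284002. The array annotation assigns transcripts of both Prl2c2 and Prl2c3 to the Prl2c3 probe, and transcripts of Prl2c2, Prl2c3 and Prl2c5 to the Prl2c5 probe. Prl2c2 is the gene long known as proliferin, and the signals of these 2 probes therefore cannot be given to a single gene.

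The Prlr probe printed above lies on the plus strand at chr15:10255629-10255688 and is annotated to all 3 RefSeq transcripts listed for it, which makes it the probe for the receptor as a whole. Another Prlr probe, at chr15:10259066-10259125, is annotated to transcript variant 1 and to 1 predicted transcript, and the third, at chr15:10278249-10278308, to transcript variant 2 and to 1 predicted transcript. They are called the variant 1 and variant 2 probes below, although neither signal belongs to that transcript alone. Exon and untranslated region boundaries in mm9 were not used here.

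The promoters of Prl2c3 and Prl2c5 show how alike these neighbouring genes are. The 250 bases before each RefSeq start are given, in GRCm38.p6 coordinates that are not to be mixed with the mm9 positions above, as chr13:12800080-12800329 on the minus strand and chr13:13182466-13182715 on the plus strand. Capitals mark the letters that differ between the 2 promoters in their alignment.
Prl2c3: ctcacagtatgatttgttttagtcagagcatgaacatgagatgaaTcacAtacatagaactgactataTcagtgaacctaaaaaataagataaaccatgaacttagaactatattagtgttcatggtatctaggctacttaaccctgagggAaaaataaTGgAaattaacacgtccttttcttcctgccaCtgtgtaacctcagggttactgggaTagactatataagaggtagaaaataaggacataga
Prl2c5: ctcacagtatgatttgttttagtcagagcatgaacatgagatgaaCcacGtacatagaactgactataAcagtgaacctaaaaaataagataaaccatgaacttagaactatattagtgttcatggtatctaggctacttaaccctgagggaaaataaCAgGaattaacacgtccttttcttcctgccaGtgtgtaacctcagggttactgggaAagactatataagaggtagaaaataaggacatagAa

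The promoters were identical in 241 of 251 aligned columns (96%), with 8 substitutions and 2 gap columns. Each held the TATA letters TATATAA, starting 30 bases before the start in Prl2c3 and 31 bases before it in Prl2c5. These letters, searched on both strands, occurred in 3.04% of 32851 RefSeq promoters of the same length. TGANTCA, the letters that AP-1 binds, occurred once in Prl2c3, 209 bases before the start, and not in Prl2c5, where 1 of the differing letters falls in it. They also occurred in 1 of the 3 Prlr promoters and in 6.75% of all promoters. TTCNNNGAA, the letters that STAT proteins bind, occurred in neither proliferin promoter, in 1 of the 3 Prlr promoters and in 7.02% of all promoters. A match says only that these letters are in the window.

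Signals are processed signals of the scanner software with its own error for the spot, which covers the measurement of that spot and not the spread between cultures or animals. For ratios, signals were divided by the 75th percentile of their array, which stood at 430 for SVC, 439 for SPA and 366 for MA. Where the software did not mark a probe as well above background, only an upper limit is known, and the fold is given as at least the stated value. A difference of at least 5-fold was counted as called.

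All 3 proliferin probes were brightest in SPA. The Prl2c1 probe read 1902 ± 190.2 in SVC, 21677 ± 2168 in SPA and 294 ± 29.5 in MA, and was well above background on each array. The Prl2c3 probe read 91.5 ± 9.78 in SVC and 2483 ± 248 in SPA. In MA it read 2.57 ± 2.57, not well above background. The order SPA, SVC, MA was therefore the same for both, and every gap between neighbours in it was larger than the spot errors.

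The Prl2c5 probe read 2043 ± 204 in SVC and 40186 ± 4019 in SPA. In MA it read 3.49 ± 2.40, not well above background. Its SPA spot carried a mark for outlying local background, where the local background was 33 against a mean signal of 39762. No member spot was saturated.

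**Figure D1:**
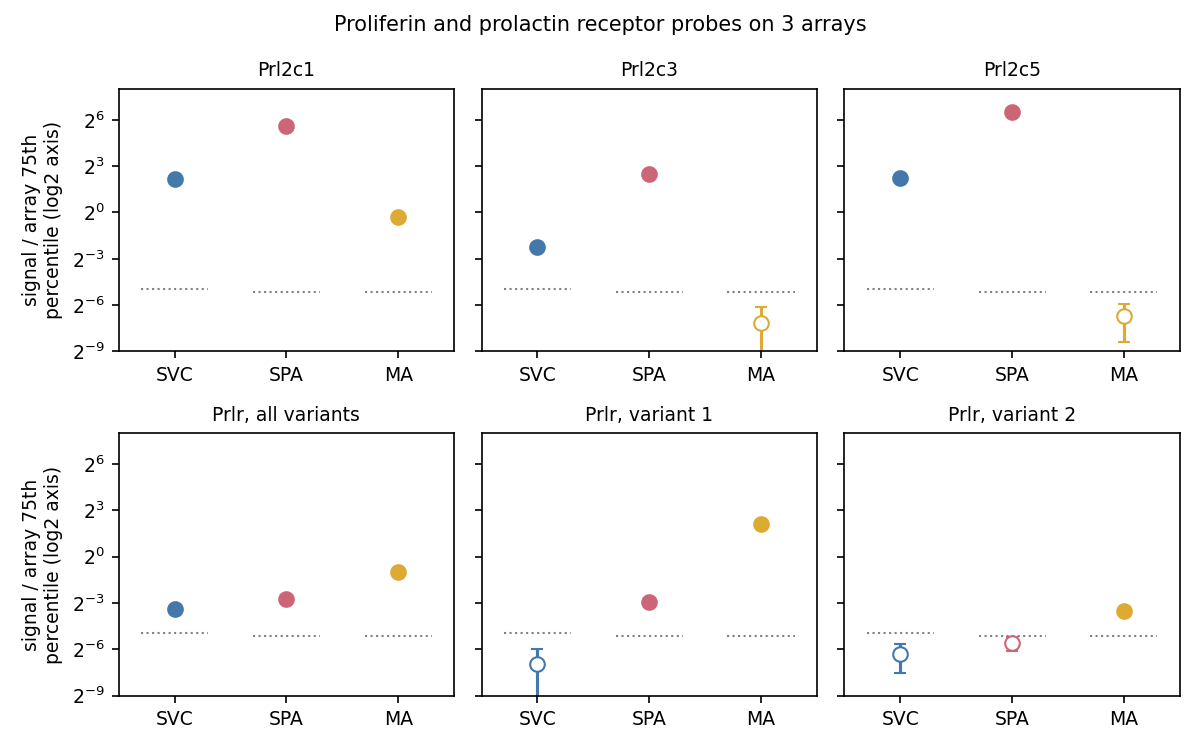
Signal of each of the 6 probes on the SVC, SPA and MA array, divided by the 75th percentile of that array (log2 axis). Bars are the scanner software's error for the spot, open points were not well above background, and dotted lines mark the lowest level that was well above background on that array. The 3 proliferin probes peak in SPA, whereas the 3 Prlr probes are highest in MA.

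In SPA against SVC, 3 of 3 proliferin probes were at least 5-fold higher, while 0.267% of the 34475 probes tested were and 0.293% were as much lower. The log2 ratio was 4.73 for Prl2c3, 4.27 for Prl2c5 and 3.48 for Prl2c1. Among 31350 probes measured on both arrays these ratios ranked 7, 9 and 17 from the highest. The study had picked Prl2c3 and Prl2c5 by this ratio on these same arrays, so that their ranks are a description and not independent evidence.

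In MA against SPA, 3 of 3 proliferin probes were at least 5-fold lower, while 3.75% of 36473 probes were. Prl2c1, the only proliferin probe measured on all 3 arrays, had a log2 ratio of -5.94, which ranked 22 from the lowest of 30945 probes measured on both. The Prl2c3 and Prl2c5 ratios are bounds set by the dimmest measurable signal on the MA array (10.3), so that their order cannot be read. Both bounds, at least 201-fold and at least 3247-fold, exceeded the 61.4-fold of Prl2c1, but under normexp background correction the Prl2c3 bound did not (log2 -4.95 against -5.67).

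MA also lay below SVC for each proliferin probe. The signal was 5.49-fold lower for Prl2c1, at least 7.54-fold lower for Prl2c3 and at least 168-fold lower for Prl2c5. Of 35746 probes tested, 3.78% were at least 5-fold lower. With normexp background correction the Prl2c1 difference was 4.69-fold and the Prl2c3 bound only 1.92-fold, both under 5-fold. Prl2c3 SPA against SVC, 26.6-fold here, was 16.2-fold under that correction. Prl2c1 thus differed from the others in MA, where it alone remained measurable.

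**Figure D2:**
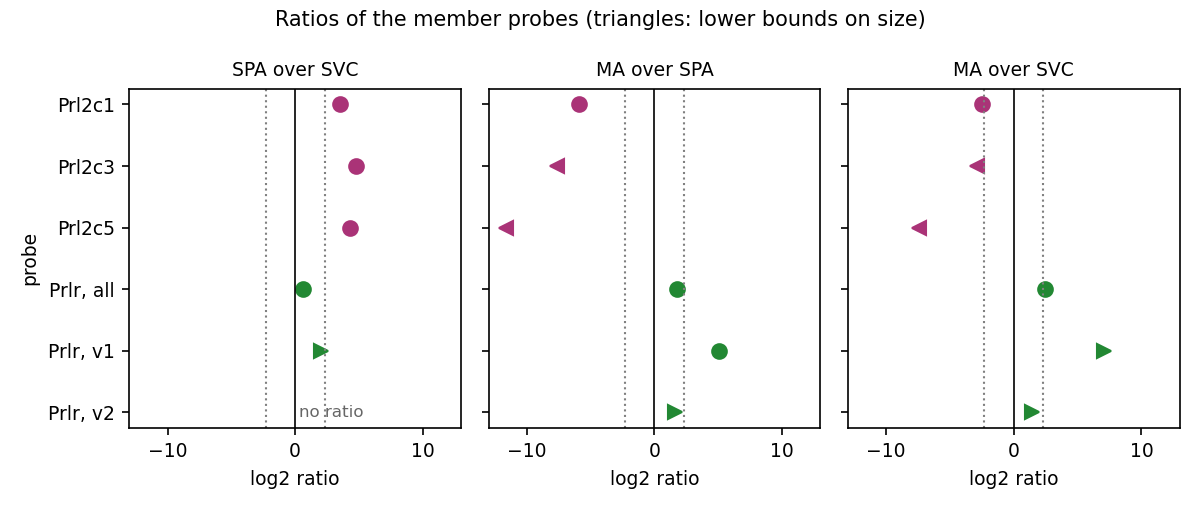
Log2 ratios of the 6 probes (rows) in the 3 comparisons (panels); circles are ratios measured on both arrays and triangles are bounds pointing to larger differences. Dotted lines mark 5-fold, v1 and v2 are the variant 1 and variant 2 probes, "no ratio" says that neither array was well above background, and the proliferin probes lie on the opposite side of 0 from the Prlr probes in both comparisons with MA.

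The prolactin receptor followed another order. The probe for all Prlr transcripts read 41.2 ± 5.30 in SVC, 66.1 ± 7.21 in SPA and 188 ± 19.0 in MA, and was well above background on each. SPA was 1.57-fold above SVC and MA was 3.42-fold above SPA, neither of which reached 5-fold. MA was 5.37-fold above SVC (log2 2.43), whereas 5.35% of probes tested were at least 5-fold higher in MA than in SVC. Normexp background correction gave 2.80-fold for this comparison.

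The variant 1 probe of Prlr showed the same order with wider gaps. It read 3.41 ± 3.43 in SVC, which was not well above background, 57.8 ± 6.49 in SPA and 1579 ± 158 in MA. SPA was at least 4.08-fold above SVC, and the log2 ratio without a filter on dim probes was 4.05, past 5-fold. MA was 32.8-fold above SPA (log2 5.04), and at least 134-fold above SVC.

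The variant 2 probe was well above background only in MA, at 31.9 ± 3.88, and read 5.38 ± 3.08 in SVC and 9.25 ± 2.82 in SPA. MA was at least 3.06-fold above SPA and at least 2.70-fold above SVC, and no ratio of SPA to SVC can be given. All 3 Prlr probes were thus brightest in MA, yet the call of MA against SPA rested on the variant 1 probe: 1 of 3 Prlr probes was at least 5-fold higher, while 5.14% of 36473 probes were. Signals of different probes are not compared with each other, and the difference between the probes in their ratios does not measure the share of a variant. The study listed Prlr, chosen on these arrays from SPA against SVC, among neuronal genes.

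The rest of the placental prolactin family was near background. Of 25 other probes, for 20 genes, 21 were well above background on none of the 3 arrays, with signals between 2.52 and 4.84 in SPA and medians of 3.26 in SVC, 2.79 in SPA and 2.42 in MA. None of the 25 was called in any comparison, out of 4 tested in SPA against SVC and 3 tested in each of the comparisons with MA. The placental lactogen gene Prl3b1 read 101 in SVC, 104 in SPA and 64.3 in MA. One probe of Prl3d1, also a placental lactogen, read 69.3, 62.3 and 62.7, while its other probe was not well above background on any array. Prl3d2 was well above background only in SVC (24.5), and 1 of 2 Prl6a1 probes only in SPA (20.6). Pituitary prolactin itself (Prl) was well above background only in SVC, at 32.2. For the 21 dim probes no ratio can be given.

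**Figure D3:**
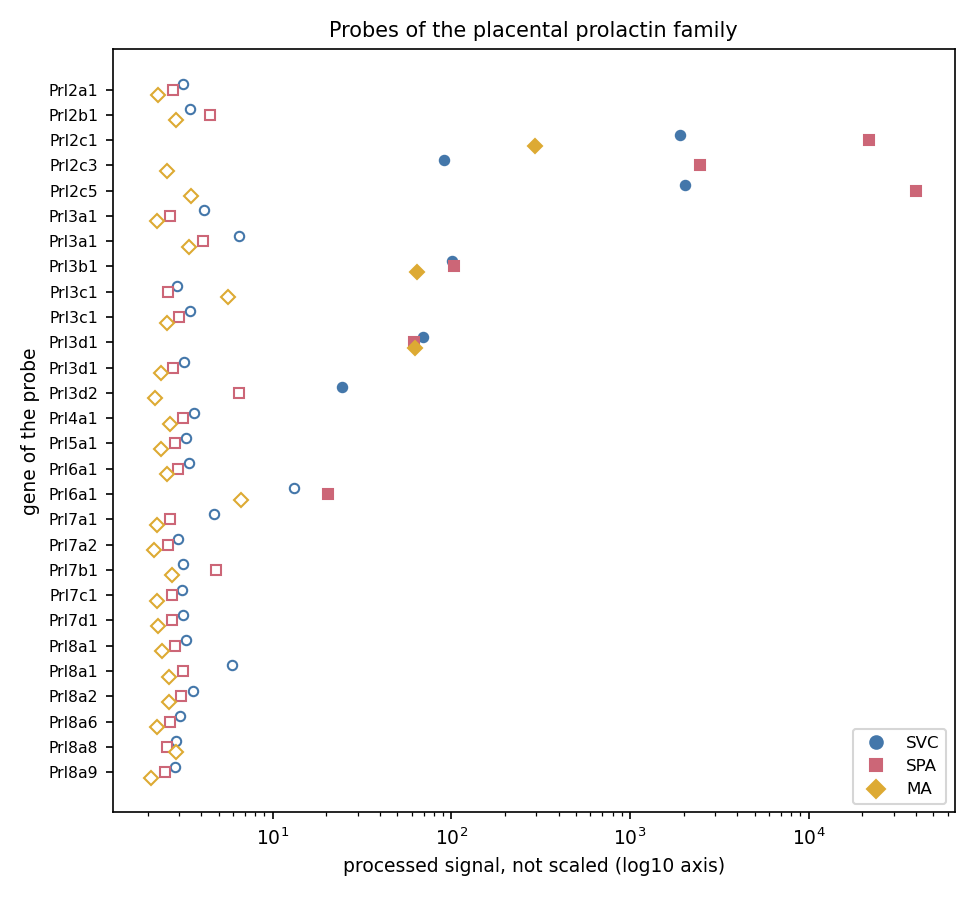
Processed signal (not scaled, log10 axis) of the 28 placental prolactin family probes, one row per probe, in SVC (circles), SPA (squares) and MA (diamonds). Filled symbols were well above background; apart from the 3 proliferin rows, 21 of 25 rows hold open symbols only.

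Trophoblast markers were examined because proliferins are placental products. Of 26 markers, 14 were well above background on no array, among them Hand1, Cdx2, Elf5, Tpbpb and Esx1. Well above background were 6 in SVC, 12 in SPA and 9 in MA. Tpbpa (16.7) and Plac1 (25.1) were so in SPA alone, near the dimmest measurable signal of that array (12.5). No marker was so in SVC alone or in MA alone. None was called in SPA against SVC, of 12 tested, where 0.32% of all genes were at least 5-fold higher. Summed over the list, the scaled signal (as multiples of the percentile used for scaling) came to 65.6 in SVC, 78.8 in SPA and 94.9 in MA, and most of it came from Gcm1 (18498, 24473 and 24705) and Psg23 (6984, 8112 and 9272). Slco2a1, a prostaglandin transporter, was the marker called in the comparisons with MA, at 2427, 1650 and 239. It was called at 1 of its 4 probes, out of 12 markers tested in MA against SPA and 10 in MA against SVC. Of all genes, 3.97% were at least 5-fold lower in MA than in SPA and 3.96% lower in MA than in SVC. Epididymal epithelium markers, which could enter from the adjoining epididymis, were on no array in 13 of 18 cases and summed to 2.07, 1.91 and 2.44.

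Among the neighbours of the Prl2c3 and Prl2c5 probes, Gpr137b and its pseudogene Gpr137b-ps were far lower in MA than in SPA. Gpr137b encodes a membrane protein of lysosomes. Its 4 probes lie between 166954 and 173311 bases from the Prl2c5 probe, and the brightest read 5316 in SVC, 14228 in SPA and 1120 in MA. Over the 4 probes SPA exceeded SVC by 2.62- to 2.98-fold, and MA lay 10.6- to 21.4-fold below SPA. The Gpr137b-ps probe, 178164 bases from the Prl2c3 probe, read 3488, 9614 and 732. Whether these probes separate the gene from its pseudogene is not known here. The order SPA, SVC, MA at these 5 probes was that of the proliferin probes, with smaller ratios in SPA against SVC and in MA against SPA. Other neighbouring probes that were not called had this order too. MA lay 4.03- to 7.18-fold below SVC over the 4 Gpr137b probes, a range that holds the 5.49-fold of Prl2c1.

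Within 1 Mb of a proliferin probe there were 81 other probes besides those of the placental prolactin family, the probe of Prl included. In SPA against SVC none of the 58 tested was called, where 0.267% of all probes were at least 5-fold higher, and their median log2 ratio was 0.16 over 53 measured on both arrays, against 0.04 over all probes. In MA against SPA, 5 of 58 were at least 5-fold lower, all of them Gpr137b or Gpr137b-ps probes, where 3.75% of all probes were, and 1 was higher (5.14% of all probes), a probe of the muscle actin-binding gene Actn2 that read 22.5 in SPA and 96.8 in MA. The median log2 ratio was -0.52 against -0.10 over all probes. Nearest to Prl2c1 were 17 of these probes, that of Prl among them, and none was called. Most of the 17 were well above background on no array, so that they could not be called.

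**Figure D4:**
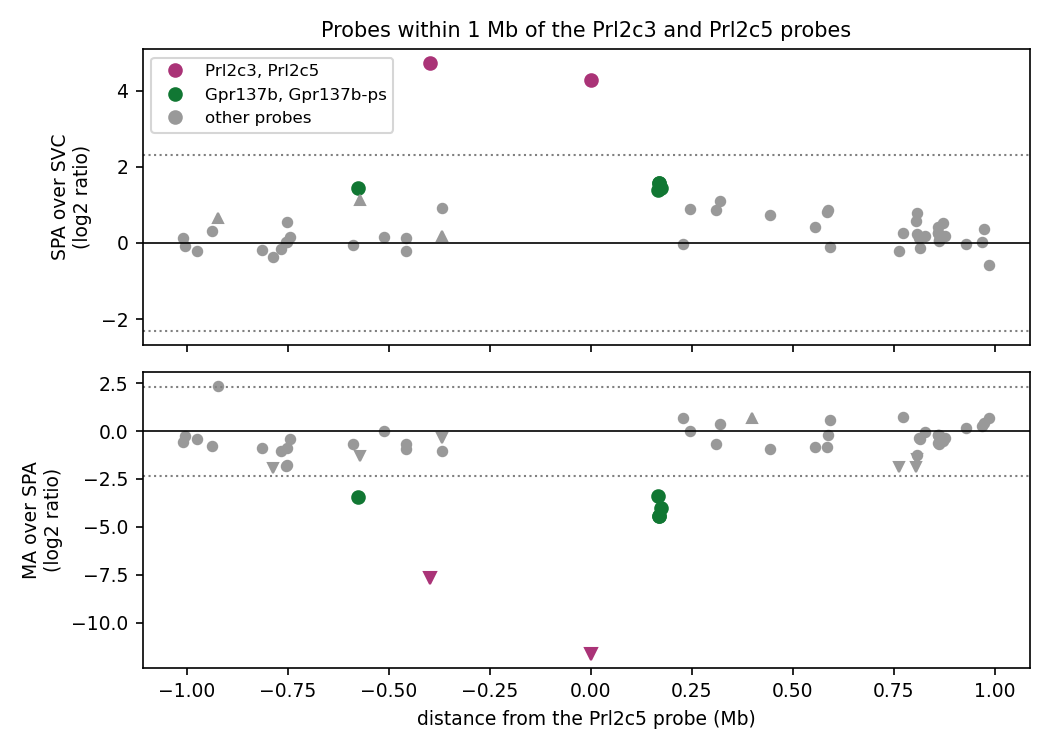
Log2 ratios of probes within 1 Mb of the Prl2c3 and Prl2c5 probes against their distance from the Prl2c5 probe in Mb, for SPA over SVC (top) and MA over SPA (bottom). Dotted lines mark 5-fold and triangles are bounds. Gpr137b and Gpr137b-ps (green) lie on the same side of 0 as the proliferin probes (purple) in both panels, as do many of the other probes (grey).

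The signalling chain of the prolactin receptor was read from 31 genes, each taken at the probe whose mean log2 level was highest. In SPA against SVC none of the 30 tested was called in either direction, while 0.32% of all genes were at least 5-fold higher and 0.351% lower. The list median was 0.08 on the log2 scale and that of all genes 0.05. Jak2, the kinase bound to the receptor, read 939 in SVC, 880 in SPA and 889 in MA. Stat5a, its main target, read 5965, 6349 and 6333. Stat5b read 699, 893 and 1072. These 3 core genes differed by less than 2-fold between any pair of arrays.

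In MA against SPA, 6 of 29 genes tested were at least 5-fold higher and 0 lower, while 5.47% of all genes were higher and 3.97% lower. The list median was 0.32 and that of all genes -0.08. Among the 6 were 3 feedback inhibitors of cytokine receptors. Cish read 125 in SVC, 85.2 in SPA and 2836 in MA, a log2 ratio of MA to SPA of 5.32. Socs3 read 2334, 1194 and 26558 (log2 4.74), and Socs1 read 186, 168 and 766 (log2 2.45). These inhibitors were lowest in SPA and highest in MA.

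The other 3 were Ghr, Irs2 and Pparg. Ghr, the growth hormone receptor, which uses the same kinase, read 760 in SVC, 1008 in SPA and 16081 in MA and was called at all 4 of its probes. Irs2, an adaptor of the insulin receptor, read 1104, 1406 and 16232. Pparg, the master regulator of adipocyte differentiation, read 1206, 3570 and 17476, and was called at 1 of its 2 probes. Ghr, Irs2 and Pparg were thus lowest in SVC and highest in MA, as Prlr was.

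In MA against SVC, 6 genes were at least 5-fold higher and 1 lower of 30 tested, while 5.72% of all genes were higher and 3.96% lower. Cebpa (log2 3.26) took the place of Socs1 (log2 2.28) among those higher. Socs5 was the gene that was lower, at 3812 in SVC, 2469 in SPA and 578 in MA. The other suppressors of cytokine signalling, Socs2, Socs4, Socs6 and Socs7, and the adaptors Shc1, Grb2 and Sos1 were not called in any comparison.

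**Figure D5:**
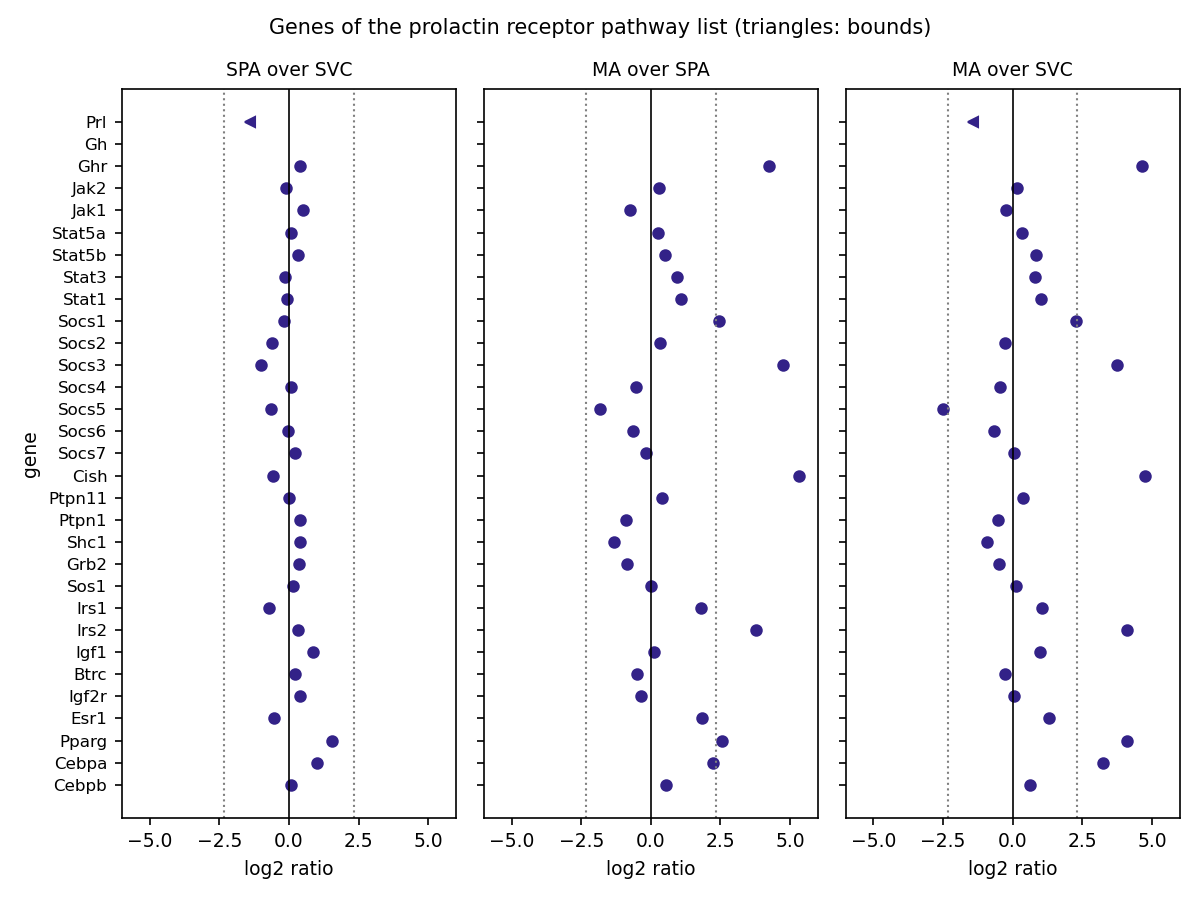
Log2 ratios of the 31 genes of the prolactin receptor list (rows) in the 3 comparisons (panels), with 5-fold as dotted lines, triangles for bounds and no point where neither array was well above background. No gene passes 5-fold in SPA over SVC, whereas Ghr, Socs3, Cish, Irs2 and Pparg do in both comparisons with MA.

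The subunits of AP-1, a transcription factor whose letters were searched for in the promoters above, were read in the same way. None of 9 was called in SPA against SVC, as for nearly all genes (0.32% higher). In MA against SPA, 5 of 9 were at least 5-fold higher, while 5.47% of all genes were. Fos read 1114 in SVC, 880 in SPA and 27614 in MA, and Fosb read 70.8, 99.9 and 31448. Fosl1 went the other way, at 531 in SVC, 1013 in SPA and 261 in MA, without reaching 5-fold. Only Fosl1 had the order of the proliferin probes, highest in SPA and lowest in MA.

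Among 19 class I cytokine receptors, the group to which Prlr belongs, none was called in SPA against SVC, where 0.32% of all genes were higher. In MA against SPA 1 was at least 5-fold higher, Ghr, as described, a share near the 5.47% of all genes. Epor, the erythropoietin receptor, was added to those higher in MA than in SVC, at 55.9 in SVC, 115 in SPA and 428 in MA. It was called at 1 of its 2 probes. In MA against SPA 2 of 19 were at least 5-fold lower, while 3.97% of all genes were. Il7r, the interleukin-7 receptor, was 1 of them, at 1650 in SVC, 5209 in SPA and 75.7 in MA. It was called at 1 of its 2 probes. Il7r had the order of the proliferin probes and not that of Prlr. Other receptors of the list that were not called also had the order of the proliferin probes, such as Csf2ra at 4804, 8635 and 1971.

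The genes most like each member were sought by the root mean square (RMS) difference of their log2 levels over the 3 arrays, after centring each on its own mean. Prlr was read at its probe for all transcripts and not at the variant 1 probe, whose log2 ratio of MA to SPA was 5.04. For Prlr so read, the nearest of 19970 genes measured on all arrays were Adap2, Tmem120a and Irgm2, with RMS differences of 0.0078, 0.017 and 0.019. For Prl2c1 they were Cst6 (0.28), Map7d2 (0.32) and an unnamed transcript (0.62). Cst6 read 697 in SVC, 5626 in SPA and 120 in MA.

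For the other proliferin probes only genes that were likewise dim in MA could be compared, of which there were 850, with MA at its upper limit. Ecel1 (0.53) was nearest to Prl2c3 and read 224, 3894 and 3.57, the last not well above background. An unnamed transcript (0.63) and Fetub (0.88) followed. Nearest to Prl2c5 were an unnamed transcript (0.48), Gsta2 (0.56), at 2070, 17877 and 9.57, and Npy (1.37). With 3 points per gene, likeness is a description of these arrays only.

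The cell types of the fractions were checked on their markers. All 10 mature adipocyte markers were at least 5-fold higher in MA than in SVC, where 5.72% of all genes were. In SPA against SVC 7 of 10 were so, where 0.32% of all genes were, with Plin1 called at 1 of its 3 probes and Slc2a4 at 1 of 2. Adipoq, Plin1 and Pck1 were not well above background in SVC. The summed scaled signal of the 10 markers was 6.42 in SVC, 63.6 in SPA and 2720 in MA, the order that Prlr had. Endothelial markers summed to 1.97, 3.91 and 24.5, which was also the order of Prlr. Of these markers 5 of 5 were at least 5-fold higher in MA than in SVC and none was below background. Kdr and Vwf were called there at 1 of 3 probes each. Macrophage markers summed to 547, 601 and 194, and stromal and progenitor markers to 299, 162 and 451, all of them well above background on each array. In MA against SVC, 1 of 13 stromal markers was at least 5-fold higher and 1, Pdgfra, lower, at 3477, 2553 and 513. In SPA against SVC, Dlk1, Msln and Upk3b of that list were at least 5-fold lower, where 0.351% of all genes were. Dlk1 was called at 1 of its 2 probes, at 5.03-fold. In MA against SPA 5 of the 13 were at least 5-fold higher, Msln and Upk3b among them, and 0 lower, where 5.47% of all genes were higher. Most of the macrophage sum came from Lyz2 (184091 in SVC, 196477 in SPA and 44821 in MA). Cd68 was at least 5-fold lower in MA than in SPA. C1qa and C1qb departed from the sum, at least 5-fold lower in SPA than in SVC and at least 5-fold higher in MA than in SPA. C1qa read 2766 in SVC, 309 in SPA and 2908 in MA. The part of these cell types in the Prlr and proliferin differences was not tested. In such bulk samples, more cells of a type and more RNA per cell cannot be told apart. Between 58.6% and 61.4% of spots were well above background on an array. Probes spotted 10 times had a median SD of 0.040 to 0.050 on the log2 scale. That SD is between spots of the same array and does not cover the spread between cultures or animals.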

How the data were processed

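Each of the 3 samples was 1 array with Cy3-labelled RNA. Agilent Feature Extraction 10.7.3.1, per the labels, made the deposited intensity values: processed signals already background-subtracted by the authors' scanner software, with marks for spots well above background, and mean and local background signals. The value table deposited by the authors holds a linear ratio, which proved to be these processed signals over 1 constant per array. What the constant stands for is not given in the sources used here (column medians 0.0934 in SVC, 0.0969 in SPA and 0.0981 in MA).

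Control spots and spots with feature outlier marks were left out, each array was divided by its 75th percentile over 59305 non-control spots, log2 was taken, and spots of a probe were averaged. A value not well above background was set to the higher of itself and the lowest level well above background on that array. Genes of lists were read at their probe with the highest mean log2 level. RefSeq named 32994 of 56605 probes through their accessions. Sequences and names from RefSeq were of GRCm38.p6, which held 2 of the 3 proliferin promoters. The genes named in the text were the members, prolactin family genes well above background, neighbours past 5-fold and the 3 genes most like each member. Of the lists only some genes were named, past 5-fold or not, and the others went into the counts. The figure of the receptor list names all of its genes. Tools were Python 3.11.15, pandas 2.3.3 and numpy 2.4.6, with limma 3.58.1 in R 4.3.3 for normexp (offset 50). One gene of a list is not reported here. Ratios and bounds were tested on simulated data. The members and lists were chosen with earlier results of these data known. With 1 array per group, precision is limited by their number, and slide and scan were shared by all 3 arrays.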

Additional observations from a re-analysis of the deposited data

How the results depend on the processing

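The 12 member ratios were recomputed, which gave 85 alternative values in all. The settings were normexp background correction, quantile normalization, scaling by measurable probes alone, the deposited value table and no filter on dim probes. Others were both arrays well above background, outlying local backgrounds left out and, for Prlr, its other probes and their median. None turned its direction and 80 stayed on the same side of 5-fold. Many of these values could not differ, so the 80 are not independent checks. The 2 settings on dim probes leave a ratio measured on both arrays as it is. Leaving out outlying local backgrounds acts only on marked spots, and the deposited table differs only in scaling. With normexp, MA against SVC fell under 5-fold for Prl2c1 (log2 -2.23), Prl2c3 (bound -0.94) and Prlr (1.48). It also lowered Prlr MA against SPA to 1.16 and the bounds of MA against SPA to -4.95 for Prl2c3 and -8.99 for Prl2c5, and that of MA against SVC to -4.77 for Prl2c5. The variant 1 probe of Prlr put MA against SPA over 5-fold (5.04), and the variant 2 probe put MA against SVC under it (1.43). Of the 6 member probes, 4 were called in MA against SPA (3 lower, 1 higher) and 5 in MA against SVC (3 lower, 2 higher). Over all probes, 3.75% were lower and 5.14% higher in MA against SPA. In MA against SVC these shares were 3.78% and 5.35%. Requiring both arrays well above background left 2 in each, because bounds are then not counted, and normexp left 2 in MA against SVC. Of the 28 family probes, 3 were called in each comparison, and these were the 3 proliferin probes already counted among the members. Both arrays well above background left 1 in each comparison with MA, and normexp left 1 in MA against SVC. A 2-fold threshold moved no count by more than 1.5 times. Without outlying local backgrounds Prl2c5 lost its SPA spot and could not be given. No paired analysis was possible because each group had 1 array. Signals near background, as for Prlr in SVC, limit the precision of its ratios.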
